A study of Mus musculus with 12 samples.

Results

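The immediate early and stress response genes described here are *Fos*, *Fosl1*, *Jun*, *Nr4a1*, *Nr4a3*, *Gadd45a*, *Gadd45b*, *Gadd45g*, *Ddit3* and *Ddit4*. They were chosen by name and function, with earlier results of these data known, and all 10 are on the panel of 770 genes that was measured. RNA was counted with the mouse version of the nCounter PanCancer Pathways panel, a method that captures each transcript with a pair of probes and counts fluorescent barcodes without amplification, in 12 samples. Each sample was fresh frozen tissue from an individual mouse. The 5 *RBS* lesions came from Rax-creERT2::Ctnnb1(ex3)Fl/+SmoM2Fl/+ embryos, in which tamoxifen given at E8.5 lets the Cre driven by the *Rax* promoter of the early eye field recombine both floxed alleles. This stabilizes beta-catenin and switches on an active form of Smoothened, so that Wnt and Shh signaling are active together. The 4 control eyes came from Ctnnb1(ex3)Fl/+SmoM2Fl/+ embryos, which carry the same floxed alleles without the Cre driver, and their labels do not state whether the dam was given tamoxifen. Lesions and control eyes were taken at E18.5. The 3 Shh-MBs were tumors of the cerebellum. They were taken at 14 days of age from mice of the genotype hGFAP-cre::SmoM2Fl/+, in which Cre acts in neural precursors and only the SmoM2 allele is floxed. Tissue, age and genotype differ together between Shh-MBs and the eye samples and cannot be told apart.

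Immediate early genes are transcribed within minutes of a stimulus, without new protein synthesis, through factors such as SRF and CREB that are already bound or activated by kinases. *Fos* and *Jun* encode the subunits of the transcription factor AP-1, and *Fosl1* encodes Fra-1, another Fos family member. *Nr4a1* and *Nr4a3* encode orphan nuclear receptors whose activity follows their own transcription. The 3 Gadd45 proteins are small acidic proteins that bind PCNA, the CDK1 complex and the kinase MAP3K4 and are induced by DNA damage and other stresses, and *Gadd45g* also marks precursors that leave the cell cycle during neurogenesis. *Ddit3* encodes CHOP, a factor of the unfolded protein and integrated stress response, and *Ddit4* encodes REDD1, an inhibitor of mTORC1 induced by hypoxia and glucocorticoids. Dissection and handling of tissue are also known to induce immediate early genes, and the time from dissection to freezing was not among the labels.

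Because transcription of these genes is started at their promoters, the bases before the start site are shown for *Fos*, with which the sample-to-sample variation of the other genes was compared, and for the 3 Gadd45 genes, which moved apart from each other. The sequences are from RefSeq (GRCm38.p6), read 5′ to 3′ on the gene's strand, and each ends at the base before the annotated start. Capitals mark matches to TGACG, to TATAAA and to the CARE motif TGATGNAAN, searched on both strands.
*Fos*, chr12:85473640-85473889, plus strand: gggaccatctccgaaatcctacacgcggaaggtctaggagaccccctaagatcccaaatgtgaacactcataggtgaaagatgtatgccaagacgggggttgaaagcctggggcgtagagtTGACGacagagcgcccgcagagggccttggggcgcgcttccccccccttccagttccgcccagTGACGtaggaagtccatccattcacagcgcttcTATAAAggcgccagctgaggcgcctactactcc
*Gadd45a*, chr6:67037408-67037657, minus strand: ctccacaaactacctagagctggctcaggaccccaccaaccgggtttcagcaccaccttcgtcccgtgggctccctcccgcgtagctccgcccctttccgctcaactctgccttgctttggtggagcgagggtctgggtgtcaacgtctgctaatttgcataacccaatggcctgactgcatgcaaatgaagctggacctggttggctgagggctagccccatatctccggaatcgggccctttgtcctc
*Gadd45b*, chr10:80929841-80930090, plus strand: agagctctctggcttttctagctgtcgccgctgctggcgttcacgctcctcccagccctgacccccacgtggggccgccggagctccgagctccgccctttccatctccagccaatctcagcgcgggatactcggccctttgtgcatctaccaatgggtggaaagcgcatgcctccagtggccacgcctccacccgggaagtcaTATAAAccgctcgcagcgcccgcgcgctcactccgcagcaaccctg
*Gadd45g*, chr13:51846425-51846674, plus strand: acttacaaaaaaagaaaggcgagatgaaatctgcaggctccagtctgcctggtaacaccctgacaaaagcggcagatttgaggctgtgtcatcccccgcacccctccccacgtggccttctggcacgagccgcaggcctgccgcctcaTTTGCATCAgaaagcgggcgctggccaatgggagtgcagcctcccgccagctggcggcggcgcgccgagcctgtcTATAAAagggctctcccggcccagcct

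The table of promoters held windows for 9 of the 10 genes, all but *Fosl1*. TGACG, the core of the CREB binding site, was found in 3 of these 9 windows of 250 bases and in 17.8% of all 32851 windows in the table. The *Fos* window held it at -129 and -66 from the start, and the *Nr4a1* and *Nr4a3* windows held it at 4 positions each. For *Nr4a1* and *Nr4a3* the window ended inside the gene's annotated span, which begins at chr15:101253902 and chr4:48045078. These 2 windows therefore belong to a later start than the gene's first. The palindromic full site TGACGTCA was in 0 of the 9 and in 1.55% of all windows, and the CArG box bound by SRF was in 0 of the 9 and in 1.47% of all windows. TATAAA was in 3 of the 9, namely *Fos* at -33, *Gadd45b* at -46 and *Gadd45g* at -27, and in 12.4% of all windows. The CARE motif, a site of ATF4 and CHOP, was in 1 of the 9, *Gadd45g*, and in 3.44% of all windows. The AP-1 motif TGANTCA was in 1 of the 9, *Ddit3*, and in 6.75% of all windows, and the GC box GGGCGG was in 7 of the 9 and in 32.7% of all windows. These are matches of letters and not measured binding. Bases further than 250 from the start were not searched, so an absence holds for these windows only.

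The deposited values are normalized but not log-transformed signals, after subtraction of a background and scaling of each sample. Between 335392 and 716684 counts above background lay behind a sample, and 1 count was worth 0.81 to 1.64 units of signal. RBS 1 and RBS 4 had the lowest depths of all 12 samples. Between 52 and 123 genes per sample sat at the sample's lowest value. Differences below are of log2(signal + 1), tested with limma over all 770 genes in each comparison, with Benjamini-Hochberg adjustment and a threshold of 0.05 for the adjusted *p*, and all comparisons share samples with each other. Of the markers listed for retina and eye, 0 of 9 were on the panel, so the ocular origin was not checked here, while the granule cell precursor markers *Zic2* and *Mycn* summed to 4147 to 5022 in Shh-MBs, against 909 to 1152 in the lesions and 1283 to 1761 in control eyes. In bulk tissue, fewer cells of a type and less RNA per cell cannot be told apart.

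Against control eyes, *RBS* lesions had higher *Fos*, *Jun*, *Nr4a1*, *Nr4a3* and *Gadd45g* and lower *Gadd45a*, while *Fosl1*, *Gadd45b*, *Ddit3* and *Ddit4* did not pass the test. Among the 10 genes the smallest adjusted *p* were in the Gadd45 family, where *Gadd45a* was 3.51-fold lower and *Gadd45g* 2.56-fold higher. Of the 10 genes 5 were called higher, against 33.0% of all genes, and 1 was called lower, against 18.2% of all genes. In 4 of the 10 the groups did not overlap, against 43.4% of all genes. The median difference was 0.20 over the 10 genes and 0.17 over all genes, so the list as a whole lay near the background.

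**Figure D1:**
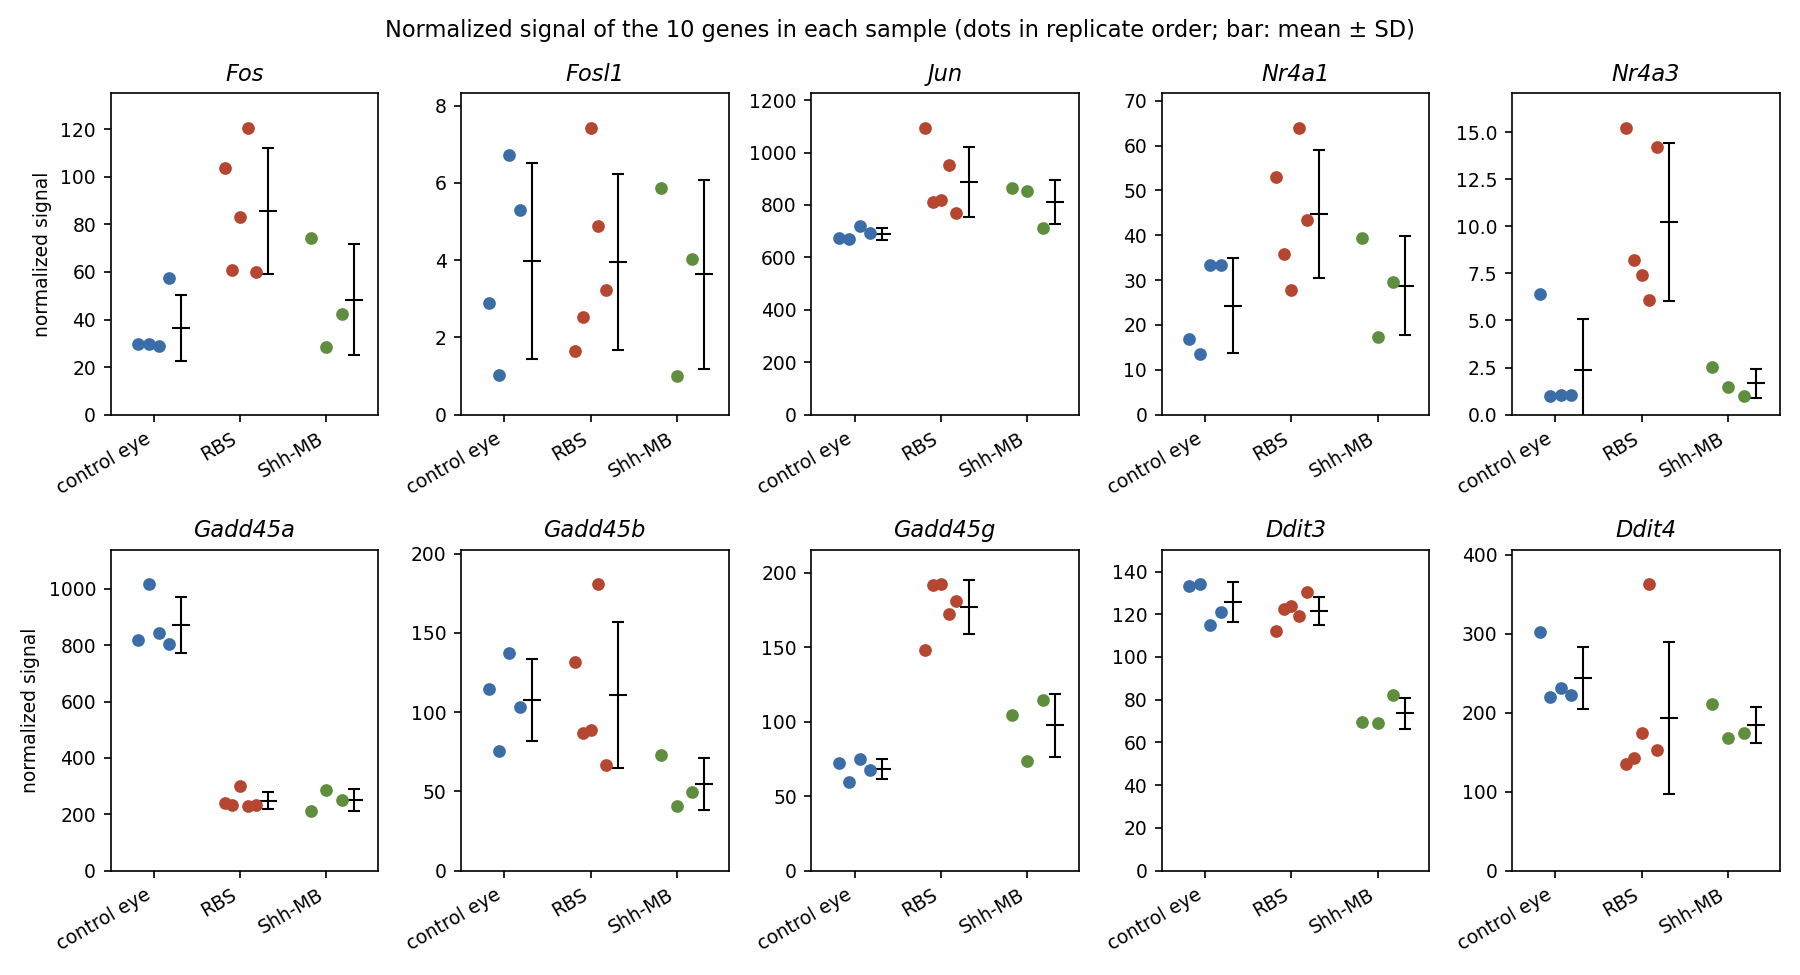
Normalized signal (linear axis from 0, its own scale in each panel) of the 10 genes in 4 control eyes, 5 *RBS* lesions and 3 Shh-MBs. Each dot is a sample, and the bar beside each group is the mean ± SD, cut at 0 for *Nr4a3* in control eyes. *Gadd45a* sits between 803 and 1018 in control eyes and at or below 302 in all other samples, and *Gadd45g* sits at or above 148 in *RBS* lesions and at or below 114 in all others.

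*Gadd45a*, the family member known best as a p53 target, read 817, 1018, 845 and 803 in control eyes 1 to 4, and 238, 234, 302, 230 and 235 in *RBS* 1 to 5. It read 212, 287 and 252 in Shh-MBs 1 to 3. All 8 lesions and tumors lay below all 4 control eyes. The log2 difference between *RBS* lesions and control eyes was -1.81 (SE 0.116, adjusted *p* = 5.14e-06), and that between Shh-MBs and control eyes was -1.80 (SE 0.146, adjusted *p* = 0.000113). Both comparisons use the same control eyes. *RBS* lesions and Shh-MBs overlapped, with a log2 difference of -0.01 (95% interval -0.34 to 0.32) as deposited. With median centring it was -0.86 (adjusted *p* = 0.00443) and with quantile normalization -0.55 (adjusted *p* = 0.0216), both called lower in lesions.

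*Gadd45g* went the other way. It read 72.1, 59.2, 74.7 and 67.8 in control eyes and 148, 192, 193, 172 and 181 in *RBS* lesions. The 5 lesions lay above the 4 control eyes, with a log2 difference of 1.36 (SE 0.111, adjusted *p* = 1.84e-05). Shh-MBs read 104, 73.6 and 114, below every *RBS* lesion, and their lowest sample lay within the range of the control eyes. The log2 difference of *RBS* lesions over Shh-MBs was 0.87 (SE 0.166, adjusted *p* = 0.00198), and that of Shh-MBs over control eyes was 0.48 (SE 0.177, adjusted *p* = 0.0683), which fell under the threshold without Shh-MB 2 (adjusted *p* = 0.0155). The first of these was 0.03 (adjusted *p* = 0.898) with median centring and 0.14 (adjusted *p* = 0.448) with quantile normalization, and the second was called higher under all 4 other scalings.

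*Gadd45b*, which is induced by NF-kappaB and TGF-beta signaling, read 114, 75.4, 137 and 103 in control eyes and 132, 86.7, 88.5, 181 and 66.3 in *RBS* lesions. Control eyes lay within the range of the lesions, and the log2 difference was -0.02 (95% interval -0.69 to 0.66). Shh-MBs read 73.1, 40.8 and 49.8, below all control eyes, with a log2 difference of -0.98 (SE 0.268, adjusted *p* = 0.026). Against Shh-MBs the lesions were higher by 0.96 (SE 0.342, adjusted *p* = 0.0395), although RBS 5 lay below Shh-MB 1. Both calls of *Gadd45b* were narrow, and both were lost under all 4 other scalings. The call against Shh-MBs was lost without any of Shh-MB 2, Shh-MB 3 and RBS 1 to 4 (adjusted *p* 0.0509 to 0.136), and the call of Shh-MBs against control eyes without any of Shh-MB 2, Shh-MB 3 and control eyes 1, 3 and 4 (adjusted *p* 0.0553 to 0.0882).

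The opposite movement of *Gadd45a* and *Gadd45g* was also read as a ratio within each sample, which multiplying a sample by a factor cannot move. The log2 ratio of *Gadd45g* over *Gadd45a* was -3.67 ± 0.29 (SD, n = 4) in control eyes. It was -0.48 ± 0.18 (SD, n = 5) in the lesions and -1.38 ± 0.51 (SD, n = 3) in the tumors. The 3 groups did not overlap. *RBS* lesions exceeded control eyes by 3.19 (two-sided exact permutation *p* = 0.00794) and Shh-MBs by 0.89 (exact permutation *p* = 0.0179), and Shh-MBs exceeded control eyes by 2.29 (exact permutation *p* = 0.0286). Each is the smallest *p* the group sizes allow, and the ratio was chosen after its values were seen. The excess over Shh-MBs ranged from 0.60 without Shh-MB 2 to 1.07 without Shh-MB 1. The ratio shows unequal change of 2 genes and does not say which of them changed.

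**Figure D2:**
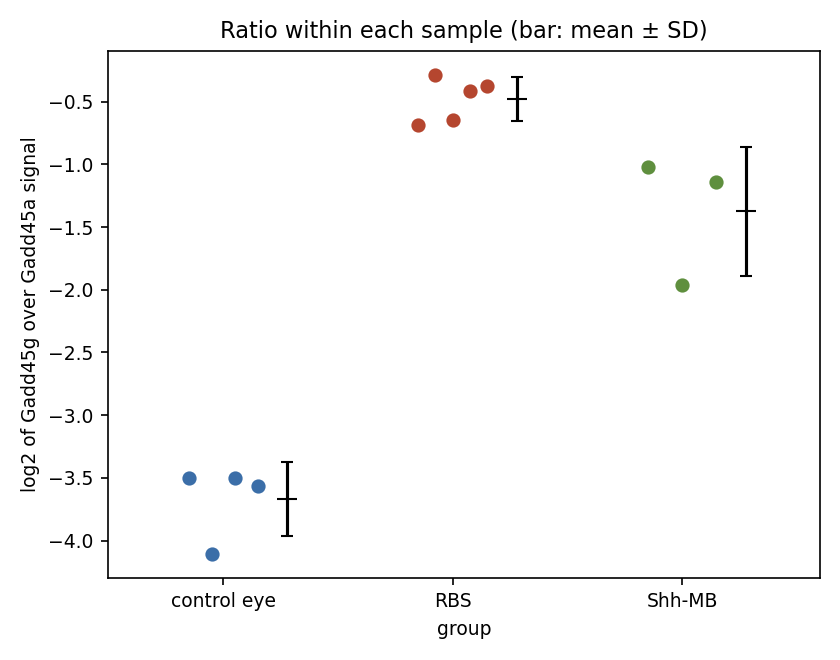
Log2 of the *Gadd45g* signal over the *Gadd45a* signal (vertical axis) within each of the 12 samples, by group, with the bar showing mean ± SD. Control eyes lie between -4.11 and -3.50, Shh-MBs between -1.96 and -1.02 and *RBS* lesions between -0.69 and -0.29.

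Among the AP-1 genes, *Fos* read 29.9, 29.8, 29.0 and 57.4 in control eyes and 104, 60.8, 83.2, 121 and 59.9 in *RBS* lesions. Every lesion lay above every control eye, though control eye 4 came within a few units of RBS 5 and RBS 2. *Fos* was higher in *RBS* lesions by 1.22 on the log2 scale (SE 0.278, adjusted *p* = 0.0056), a 2.32-fold difference. Shh-MBs read 74.2, 28.6 and 42.2, with 1 tumor inside the range of the lesions and 1 below all control eyes. The log2 difference of *RBS* lesions over Shh-MBs was 0.86 (95% interval 0.05 to 1.67, adjusted *p* = 0.0618). It was 1.22 (adjusted *p* = 0.0131) without Shh-MB 1 and 0.55 (adjusted *p* = 0.223) without Shh-MB 2. It was also 0.02 with median centring and -0.24 with quantile normalization, with no call. It passed the threshold in 5 of 23 alternatives, the others being the fit of all 12 samples, limma with trend and robust settings, low genes left out and the replicate block (adjusted *p* 0.0234 to 0.0476).

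*Jun* read 675, 668, 721 and 694 in control eyes and 1094, 811, 820, 951 and 770 in *RBS* lesions, with no overlap. The log2 difference was 0.35 (SE 0.115, adjusted *p* = 0.0285), which is 1.28-fold, and 0.18 above the median of all genes. The call was lost without RBS 4 or without control eye 1, 2 or 4 (adjusted *p* 0.0515 to 0.0683), and also when samples were centred on their median (0.18, adjusted *p* = 0.229), on housekeeping genes (0.25, adjusted *p* = 0.197) or quantile normalized (0.13, adjusted *p* = 0.472). Shh-MBs read 865, 852 and 713 and overlapped both eye groups. *Fosl1* was at or near the lowest value in all groups, between 1.01 and 6.72 in control eyes, 1.64 and 7.42 in lesions and 1 and 5.87 in tumors. This corresponds to at most 8 counts, the lowest values being a floor. The log2 difference of *RBS* lesions over control eyes was 0.04 (95% interval -0.97 to 1.06).

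Of the nuclear receptors, *Nr4a1* read 17.0, 13.5, 33.3 and 33.4 in control eyes and 53, 35.7, 27.7, 63.9 and 43.5 in *RBS* lesions. The groups overlapped through RBS 3, which lay below control eyes 3 and 4. The log2 difference was 0.90 (SE 0.33, adjusted *p* = 0.0467, two-sided exact permutation *p* = 0.0556). The call was lost when any of RBS 1, 2, 4 or 5 or control eyes 1 or 2 was left out (adjusted *p* 0.0599 to 0.127), and it passed in 8 of 24 alternatives, so *Nr4a1* is the least settled of the 5 higher genes. Shh-MBs read 39.5, 17.4 and 29.5, within the span of the eyes.

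*Nr4a3* read 6.40, 1.01, 1.06 and 1.04 in control eyes, 15.2, 8.21, 7.42, 6.08 and 14.2 in the lesions and 2.51, 1.48 and 1 in Shh-MBs. Of the 4 control eyes 3 were at their sample's lowest value, control eye 1 lay just above RBS 4, and all Shh-MBs lay below all lesions. This is about 5 to 16 counts above background per lesion, at most 5 per control eye and at most 2 per Shh-MB, where the lowest value is a floor and not a measured count. The log2 difference was 1.92 (SE 0.439, adjusted *p* = 0.0056) over control eyes and 2.04 (SE 0.326, adjusted *p* = 0.000791) over Shh-MBs. Its size depends on the pseudocount at such low values, and with 5 in place of 1 the difference to control eyes was 1.06 (adjusted *p* = 0.00577) and that to Shh-MBs 1.16. Quantile normalization left no call against Shh-MBs (1.04, adjusted *p* = 0.0783).

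*Ddit3* read 133, 134, 115.1 and 121 in control eyes and 112, 122, 124, 119 and 130 in *RBS* lesions. The ranges overlapped, and the 95% interval of the log2 difference was narrow, -0.24 to 0.14. Shh-MBs read 69.7, 68.9 and 82.1, below all 9 eye samples. The log2 difference of *RBS* lesions over Shh-MBs was 0.72 (SE 0.102, adjusted *p* = 0.000411) and that of Shh-MBs over control eyes -0.77 (SE 0.112, adjusted *p* = 0.00171). When samples were centred on their median or quantile normalized, the difference of *RBS* lesions over Shh-MBs turned to -0.13 and -0.14, and that of Shh-MBs over control eyes shrank to -0.10 (adjusted *p* = 0.609) and -0.11 (adjusted *p* = 0.536), with no call. Both calls of *Ddit3* therefore depend on the scaling.

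*Ddit4* read 302, 220, 231 and 222 in control eyes and 135, 143, 174, 363 and 152 in *RBS* lesions. RBS 4 lay above all control eyes, and the other 4 lesions lay below all of them. The log2 difference was -0.43 (SE 0.282, adjusted *p* = 0.246). Without RBS 4 it was -0.68 (adjusted *p* = 0.00417), so this lesion decides the call. Shh-MBs read 211, 168 and 175, below all control eyes, with a log2 difference of -0.39 (SE 0.154, adjusted *p* = 0.0847).

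**Figure D3:**
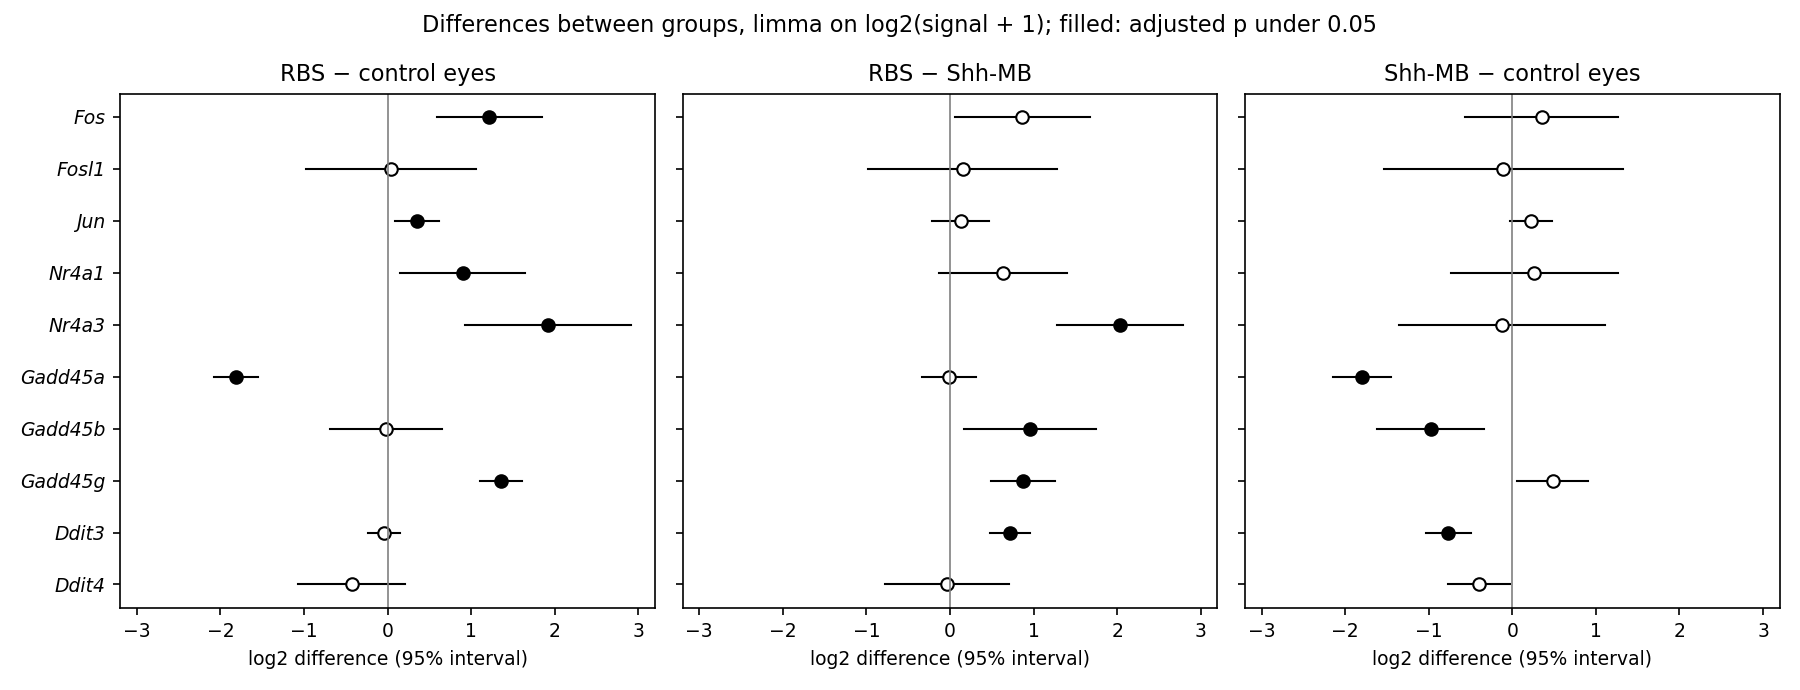
Log2 difference (dots) with its 95% interval (lines) of each gene in the 3 comparisons, with filled dots for an adjusted *p* under 0.05 and the vertical line at 0. In *RBS* lesions against control eyes *Gadd45a* lies at -1.81 and *Gadd45g* at 1.36 with narrow intervals, and *Nr4a3* at 1.92 with a wide interval.

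Against Shh-MBs, 4 of the 10 genes were called higher in *RBS* lesions, namely *Nr4a3*, *Gadd45b*, *Gadd45g* and *Ddit3*, against 48.1% of all genes, and 0 were called lower by limma, against 12.7% of all genes. Of the 10 genes 0 had a negative difference at an unadjusted *p* under 0.05, and median centring called 3 lower. In 3 of the 10 the groups did not overlap, against 59.9% of all genes. Between Shh-MBs and control eyes, 0 of the 10 were called higher by limma, against 9.61% of all genes, and 3 were called lower, *Gadd45a*, *Gadd45b* and *Ddit3*, against 31.4% of all genes. *Gadd45g* was higher at an unadjusted *p* of 0.0308, and quantile normalization called 4 higher. In 4 of the 10 these groups did not overlap, against 48.2% of all genes.

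The differences to Shh-MBs depend on how the samples are scaled. The median difference of all genes between *RBS* lesions and Shh-MBs was 0.53 as deposited and -0.32, -0.10, 0.29 and 0.19 after median centring, quantile normalization, housekeeping centring and division by the total signal, leaving out its 3 most abundant genes. Relative to the median gene as deposited, *Nr4a3* stood at 1.51, *Gadd45b* at 0.43, *Gadd45g* at 0.35 and *Ddit3* at 0.19 in *RBS* lesions over Shh-MBs, and *Gadd45a* at -0.54 and *Ddit4* at -0.56. For Shh-MBs over control eyes the median was -0.22 as deposited and ranged from -0.09 to 0.44 over those 4 scalings. Relative to it *Gadd45a* stood at -1.58, *Gadd45b* at -0.75, *Ddit3* at -0.54 and *Gadd45g* at 0.71. *Gadd45a* stayed lower in Shh-MBs than in control eyes in all 21 alternatives and was called in 20 of them. These include the exact permutation, whose *p* was not adjusted.

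Across the groups, as deposited, mean *Fos*, *Jun*, *Nr4a1* and *Gadd45g* ran from *RBS* lesions through Shh-MBs to control eyes, with means of 85.7, 48.3 and 36.5 for *Fos* and of 177, 97.4 and 68.4 for *Gadd45g*. In this order Shh-MBs and control eyes passed the threshold as neighbours for none of these 4 genes, and *RBS* lesions and Shh-MBs for *Gadd45g* alone. The order depends on the scaling, since median centring placed lesions below Shh-MBs for *Jun* and *Nr4a1*, and quantile normalization for *Fos*, *Jun* and *Nr4a1*. Shh-MBs were called higher than control eyes for *Fos* with median centring and quantile normalization (adjusted *p* = 0.024 and 0.00584), for *Jun* with these and with total scaling (adjusted *p* 0.00182 to 0.0167), for *Nr4a1* with quantile normalization (adjusted *p* = 0.0087) and for *Gadd45g* under all 4 other scalings. For *Gadd45a* control eyes were highest at 871 ± 99.7 (SD, n = 4), and Shh-MBs at 250.3 ± 37.7 (SD, n = 3) and *RBS* lesions at 248 ± 30.3 (SD, n = 5) did not differ beyond their spread as deposited, though median centring and quantile normalization called the lesions lower. For *Ddit3* control eyes (126 ± 9.36, n = 4) and *RBS* lesions (122 ± 6.67, n = 5) did not differ beyond their spread, and Shh-MBs were lowest (73.6 ± 7.38, n = 3) as deposited, but not with median centring or quantile normalization, where the lesions were.

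Within the groups, the genes varied from animal to animal to different degrees. The pooled within-group SD on the log2 scale was 0.55 for *Nr4a1*, 0.51 for *Fos*, 0.47 for *Gadd45b* and 0.42 for *Ddit4*, which placed them 45th, 56th, 67th and 101st of the 569 genes with a mean above 20 units. It was 0.21 for *Gadd45g*, 0.18 for *Gadd45a*, 0.16 for *Jun* and 0.10 for *Ddit3*, which placed them 313th, 371st, 401st and 502nd. RBS 1 and RBS 4 were the highest 2 of 5 lesions for *Fos*, *Jun*, *Nr4a1* and *Gadd45b*, and Shh-MB 1 was the highest of 3 tumors for 7 of the 10 genes, all but the 3 that are *Gadd45a*, *Gadd45g* and *Ddit3*. Shh-MB 1 also had the lowest depth of the tumors (541092 counts) and the highest median signal over all genes (86.5, against 67.1 and 71.5), and the part of either was not tested. The share of all genes that were highest in RBS 1 and RBS 4 or in Shh-MB 1 was not counted. *Fosl1*, *Gadd45g*, *Ddit3* and *Ddit4* were lowest in RBS 1, so *Ddit4*, highest in RBS 4, did not share the pair. In control eyes the highest sample differed, being control eye 4 for *Fos* and *Nr4a1*, control eye 3 for *Gadd45b* and control eye 1 for *Ddit4*.

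RBS 1 and RBS 4 are also the samples with the lowest depth. Of the lesions they had the highest median signal over all genes (138.3 and 138.7, against 130, 136.6 and 130.8). The part of depth or median signal in this pattern was not tested. The differences between *RBS* lesions and control eyes were therefore also computed without RBS 1 and RBS 4, a choice made after their values were seen. *Fos* was then 0.93 higher (adjusted *p* = 0.0309), *Jun* 0.21 higher (adjusted *p* = 0.0453) and *Nr4a3* 1.91 higher (adjusted *p* = 0.023), while *Nr4a1* (0.61, adjusted *p* = 0.214) no longer passed and *Ddit4* was called lower (-0.63, adjusted *p* = 0.0104).

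**Figure D4:**
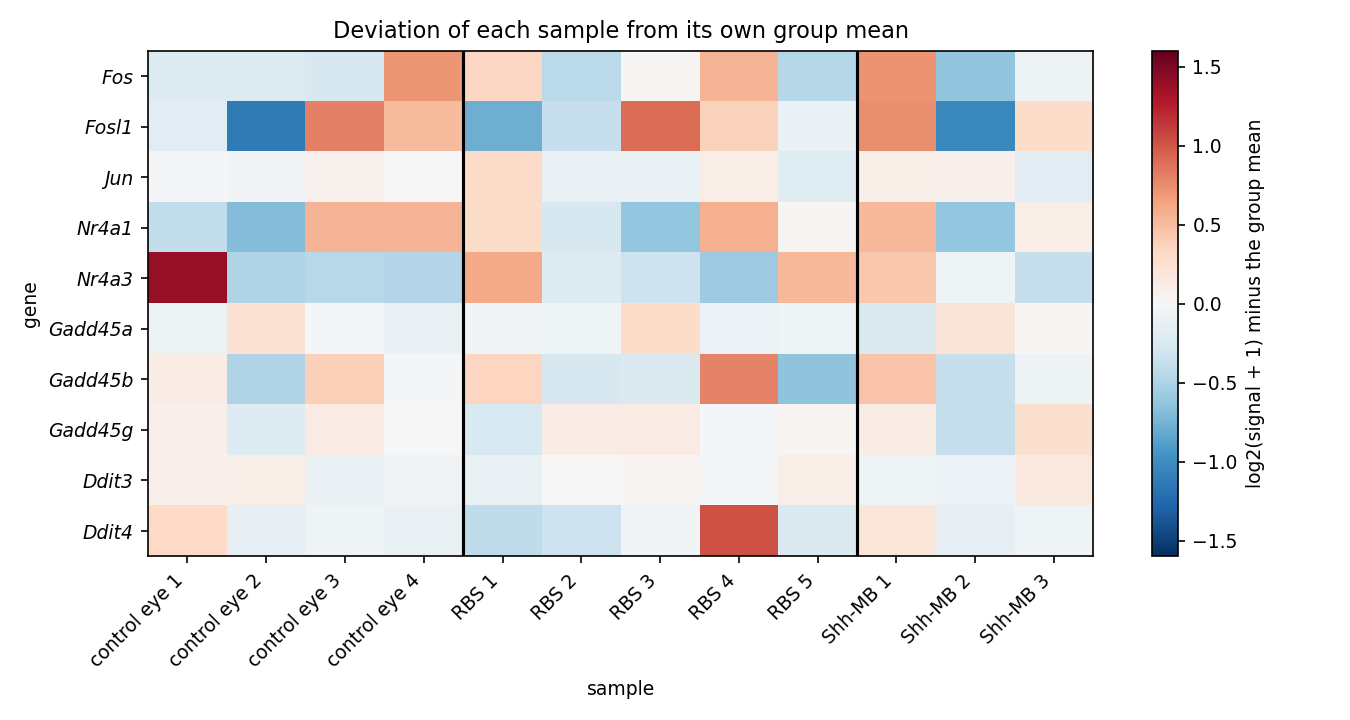
Deviation of each sample from the mean of its own group, in log2(signal + 1), for the 10 genes (rows) and 12 samples (columns, groups divided by black lines), with red above and blue below the mean. RBS 4 is red for *Fos*, *Nr4a1*, *Gadd45b* and *Ddit4*, control eye 4 for *Fos* and *Nr4a1*, and *Ddit3* is pale throughout. The strong red of *Nr4a3* in control eye 1 rests on a value of 6.40.

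The 5 genes whose within-group deviations over the 12 samples were most like those of *Fos*, among 568 other genes with a mean above 20 units, were *Pdgfd* (r = 0.84), *Csf1r* (r = 0.83), *Shc4* (r = 0.82), *Spry1* (r = 0.81) and *Notch3* (r = 0.79). *Pdgfd* encodes a PDGF ligand, *Csf1r* the receptor of macrophage colony-stimulating factor, *Shc4* a receptor kinase adaptor, *Spry1* a feedback inhibitor of receptor kinase signaling and *Notch3* a Notch receptor of mural cells. Of the members, *Nr4a1* came 42nd (r = 0.68), *Gadd45b* 44th (r = 0.67) and *Jun* 134th (r = 0.47). *Ddit3* (r = -0.32) and *Gadd45a* (r = -0.49) ran against *Fos*. These correlations describe 12 samples that share their library, depth and scaling factor across genes. *Notch3* read 8.10, 1 and 5.72 in Shh-MBs, so it passed the filter through the eye samples. *Pdgfd* read 20.4, 6.16 and 14.2 there. At such low values small changes of signal move the log2 value much, and their part in r was not tested. *Csf1r* read 74.5, 66.3, 73.6 and 101 in control eyes, 188, 153, 178, 178 and 140 in the lesions and 201, 97.0 and 88 in the tumors. Its highest control eye and highest tumor were the samples highest for *Fos*, while among lesions *Csf1r* was highest in RBS 1 and *Fos* in RBS 4.

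Cell type markers also differed between the groups. The 5 blood and immune markers on the panel summed to 103 to 153 in control eyes, 196 to 263 in lesions and 128 to 241 in tumors, and 2 of the 5 (*Csf1r* and *Cd14*) were called higher in lesions than in control eyes. The 4 neuronal markers summed to 547 to 717 in control eyes, 2104 to 2818 in lesions and 317 to 499 in tumors. In lesions against control eyes 3 of 4 were called higher, and none was at its lowest value in all samples of a group. Such a sum follows its most abundant markers. Between Shh-MBs and control eyes 2 of the 4 were called higher and 1 lower, with a median of 0.45, against 9.61% and 31.4% of all genes. The 6 surface epithelium markers summed to 304 to 608 in control eyes and 457 to 911 in lesions, with 3 of 6 called higher (2 under each of the 4 other scalings), and to 15.1 to 24.3 in Shh-MBs, where *Calml3* was at its lowest value in all 3. The 7 mesenchyme markers summed to 25550 to 57830 in control eyes, 19840 to 36410 in lesions and 1475 to 2099 in Shh-MBs, with 2 of 7, *Col1a1* and *Col1a2*, called lower in lesions than in control eyes, and 1 to 4 under the other scalings. Quantile normalization left no call for *Cd14*, *Col1a1* or *Col1a2*. By a parametric form of the methods' test with Benjamini-Hochberg adjustment, 0 of the 7 mesenchyme markers were lower in lesions. At an unadjusted limma *p* under 0.05, 3 of them were lower and 1 higher. The limma counts of lesions against control eyes stand beside 33.0% of all genes called higher and 18.2% called lower. The part of these cell types in the differences of *Fos*, *Nr4a1*, *Nr4a3* and the Gadd45 genes was not tested.

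Other stimulus-induced genes, 17 of 32 listed being on the panel, moved in both directions, with 7 called higher and 4 lower in lesions than in the eyes without Cre and a median of 0.36 (0.18 with median centring), and with 4 to 7 higher and 4 lower under the 4 other scalings. The largest rises were of *Plat*, which encodes tissue plasminogen activator (2.11, adjusted *p* = 2.42e-05, from 143 ± 27.8 to 622 ± 128), and *Dusp4*, which encodes a nuclear MAP kinase phosphatase (1.76, adjusted *p* = 0.000516, from 544 ± 97.6 to 1917 ± 581). The largest falls were of *Thbs1*, which encodes thrombospondin 1 (-0.96, adjusted *p* = 0.00404), and *Dusp5*, which encodes an ERK-specific phosphatase (-0.83, adjusted *p* = 0.00403). Of 17 MAP kinases upstream of AP-1, 9 were called higher and 0 lower by limma, with a median of 0.40 (0.22 with median centring and 0.24 with quantile normalization). *Mapk10*, which encodes the neuronal JNK3, rose by 2.23 (adjusted *p* = 4.01e-06), from 271 ± 46.4 to 1263 ± 136, and *Map3k12*, which encodes the JNK activator DLK, by 0.89 (adjusted *p* = 0.0177). At an unadjusted *p* under 0.05, and by a parametric form of the methods' test with Benjamini-Hochberg adjustment, 0 of the 17 were lower as well, but median centring and quantile normalization each called 2 lower and 4 or 5 higher, without a call for *Map3k12* (adjusted *p* = 0.0571 and 0.203).

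Of the 3 Gadd45 partners on the panel, *Pcna*, the replication clamp, was called lower (-1.10, adjusted *p* = 7.87e-05), from 4339 ± 484 in control eyes to 2024 ± 228 in *RBS* lesions, against 5525 ± 373 in Shh-MBs. Of 8 genes of the p53 pathway 1 was called higher, *Bax*, which promotes apoptosis (0.61, adjusted *p* = 0.00882), and 4 lower, with *Chek1* (-1.23, adjusted *p* = 7.61e-05) and *Chek2* (-0.78, adjusted *p* = 0.00638) falling most. Both encode checkpoint kinases of the DNA damage response. The list's median was -0.20, 4 genes were lower under every scaling, and the call of *Bax* was lost with housekeeping centring and quantile normalization (adjusted *p* = 0.0501 and 0.0641). Of 7 genes around TSC and mTOR, on which REDD1 acts, 4 were called higher, among them *Tsc1* (0.65, adjusted *p* = 0.00123), and 1 lower, *Eif4ebp1*, an inhibitor of translation (-0.84, adjusted *p* = 0.000432), with a median of 0.31. Under the 4 other scalings 2 were higher and 1 lower, and the median fell to 0.14 with median centring. Of 4 protein folding and integrated stress genes 1 was called higher, *Hspa1a*, the inducible heat shock protein (0.67, adjusted *p* = 0.0244), from 86.8 ± 31.8 to 134 ± 18.3, against 8.62 ± 5.41 in Shh-MBs, and the median was 0.05. That call was lost with median centring and quantile normalization, and the list's median was below 0 under all 4 other scalings. The 8 reference genes held 1 call in each direction, *Hdac3* (0.28) and *Sf3a3* (-0.26), of which that of *Hdac3* was lost with median centring, housekeeping centring and quantile normalization (adjusted *p* 0.123 to 0.355). The count of each list is set against the 33.0% of all genes called higher and 18.2% called lower.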

How the data were processed

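RNA of 12 mouse tissue samples was counted on the nCounter Mouse PanCancer Pathways panel. The deposited values are a normalized signal that the authors compiled with nSolver 4.0.70 and nCounter Advanced Analysis 2.0.115, and the log2 step of the methods is not in them. Low values lie on even steps, from which the depth of each sample was estimated. The geometric mean of 20 panel genes was the same in every sample (637.6). Background setting and reference genes are not given in the sources used here. No further normalization or filter was applied.

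Log2(signal + 1) was compared with limma 3.58.1 in R 4.3.3 (lmFit, eBayes, two-sided) in a fit for each pair of groups, each sample being 1 animal. Which embryos were littermates is not given in the sources used here. A parametric form of the methods' test without its permutations, other fits, pseudocounts, scalings, filters, exact permutation and leaving out samples served as alternatives. The members and lists were chosen with earlier results of these data known. Named genes were the 10 members, up to 2 rises and 2 falls per list and the 5 genes most like *Fos*. A gene that this rule names is not reported here. Scripts ran in Python 3.11.15 with matplotlib 3.10.9 and were tested on simulated data. Promoters and gene names came from RefSeq tables (GRCm38.p6), in which 760 symbols matched directly and 10 by an older name.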

Additional observations from a re-analysis of the deposited data

Results flagged for a closer look

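Of the 20 groups of 4 or 5 samples that were tested for a sample far from the others, 5 held one. Chance gives about 1 in 20 for normally spread values, which genes at the floor do not have. *Fos* read 57.4 in control eye 4, against 29.0 to 29.9 in the other control eyes. *Nr4a3* read 6.40 in control eye 1, against 1.01 to 1.06 in the others. Those 3 sat at their lowest value, so any sample well above it would be flagged. *Gadd45a* read 302 in RBS 3, against 230.3 to 238 in the other lesions. *Ddit4* read 302 in control eye 1, against 220.3 to 231 in the others. *Ddit4* read 363 in RBS 4, against 135 to 174 in the other lesions. The causes were not tested.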

How the results depend on the processing

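Against control eyes, *Gadd45a* and *Gadd45g* kept their calls in all 24 alternatives, *Fos* in 23 of 24 and *Nr4a3* in 21 of 22, both losing it with step-down Bonferroni adjustment of a parametric form of the methods' test, run without their permutations. *Jun* kept it in 15 and *Nr4a1* in 8 of 24. The members called higher in that comparison, 5 as reported, were 1 with step-down Bonferroni and 3 with median centring, housekeeping centring, quantile normalization, values under 20 set to 20 and the replicate block. Leaving out 1 sample gave 3 to 5 higher and 1 to 2 lower, and leaving out RBS 1 and RBS 4 gave 2 lower. Over all genes, step-down Bonferroni called 41 higher and 31 lower there, 56 and 24 against Shh-MBs and 7 and 29 between Shh-MBs and control eyes, with 0 members higher against Shh-MBs and 0 lower between Shh-MBs and control eyes. The same test with Benjamini-Hochberg adjustment called 2 members higher against Shh-MBs. In every count of alternatives, centring on the 20 genes of equal geometric mean is included. It repeats the main fit by construction and adds no support to a call.

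Same-numbered samples did not deviate together (r from -0.148 to 0.188), so the block is only a check. It kept same-numbered samples only. RBS 5 was left out against control eyes, RBS 4 and RBS 5 against Shh-MBs, and control eye 4 between Shh-MBs and control eyes. With the replicate block and without these samples, *Gadd45b* turned to 0.14 against control eyes and *Gadd45a* to 0.046 against Shh-MBs. *Fosl1* turned to 0.065 between Shh-MBs and control eyes, as it did without control eye 4 alone. None of them was called.

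Against Shh-MBs, median centring called 1 member higher and 3 lower (181 and 319 of all genes), quantile normalization 0 and 1 (204 and 234), setting values under 20 to 20 called 2 higher, and total scaling called 164 genes lower. The turned differences were, with median centring, *Fosl1* -0.70, *Jun* -0.72, *Nr4a1* -0.21 and *Ddit3* -0.13. With quantile normalization they were *Fos* -0.24, *Fosl1* -0.64, *Jun* -0.28, *Nr4a1* -0.74, *Gadd45b* -0.0057 and *Ddit3* -0.14. With housekeeping centring they were *Fosl1* -0.092 and *Jun* -0.12, with total scaling *Fosl1* -0.13 and *Jun* -0.25, and without RBS 1 and RBS 4 *Jun* -0.013 and *Gadd45a* 0.038. Of these *Jun* was called under median centring (adjusted *p* = 0.00285).

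Between Shh-MBs and control eyes, members called higher were 3 with median centring, 4 with quantile normalization, 2 with total scaling, 1 each with housekeeping centring, the fit of all 12 samples and low genes left out, and 0 to 1 when 1 sample was left out. Members called lower were 1 with median centring and quantile normalization. Of all genes 311 and 139 were higher and lower with median centring, 221 and 147 with quantile normalization, and 160 higher with total scaling. The turned differences were *Fosl1* 0.56, *Nr4a3* 0.55 and *Ddit4* 0.27 with median centring, *Fosl1* 0.36 and *Nr4a3* 0.42 with quantile normalization, *Fosl1* 0.028 and *Nr4a3* 0.014 with housekeeping centring, and *Fosl1* 0.13 and *Nr4a3* 0.076 with total scaling. Against control eyes *Fosl1* turned to -0.14, -0.064, -0.28 and -0.0011 under median, housekeeping, quantile and total scaling.

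Leaving out 1 sample turned differences that were not called. The lowest and highest values were -0.21 and 0.14 for *Gadd45b* and -0.33 and 0.31 for *Fosl1* against control eyes, -0.29 and 0.068 for *Ddit4*, -0.37 and 0.52 for *Fosl1* and -0.12 and 0.094 for *Gadd45a* against Shh-MBs, and -0.0054 and 0.67 for *Fos*, -0.48 and 0.41 for *Fosl1* and -0.34 and 0.34 for *Nr4a3* between Shh-MBs and control eyes. Values under 20 set to 20 gave no value for *Fosl1*, nor for *Nr4a3*, which is under 20 in all samples. The causes were not tested. *Fosl1* rests on at most 8 and *Nr4a3* on at most 16 counts above background per sample.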
